A study of Homo sapiens with 8 samples.

Results

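The neuronal pentraxins are a small gene family of 3 members, NPTX1, NPTX2 and NPTXR, taken by gene name from a table of 35940 gene symbols. NPTX1 was chosen by its measured TPM, high at 34 h and much lower at 42 h, so its values at these time points describe the choice and are given with no test. The other 2 members were taken as its relatives. Each of the 3 has a single row in the table, and all 3 passed the filter on low values (at least 1 TPM in 2 or more libraries).

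NPTX1 and NPTX2 are secreted proteins, and NPTXR is a related protein anchored in the membrane. They share a pentraxin domain, assemble into mixed multimers, and gather AMPA-type glutamate receptors at excitatory synapses. In human pluripotent stem cells NPTX1 has also been described as a factor that favours the neural lineage and binds TDGF1, the co-receptor for NODAL.

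The cells were ESI017, a human embryonic stem cell line of wild type genotype. They were seeded at 30000 cells per cm2 and then differentiated in N2B27, a serum-free neural medium, with SB at 10 µM and LDN at 100 nM. Recombinant WNT3A (300 ng/mL) was given at 34 h, and poly(A) RNA was sequenced at 34, 42, 50 and 72 h. Each time point has 2 libraries, replicate 1 and replicate 2, which the labels also number as batches; the design text calls the second an independent biological replicate. The 34 h libraries stand for the state before WNT3A. No series without WNT3A was analysed here, so elapsed time and WNT3A cannot be told apart in any comparison. All 4 groups share the same line, medium, SB and LDN.

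Levels are in TPM (the share of a library's transcripts per 1000000, scaled by length, so that levels of different genes can be set side by side). The number of reads behind each value is unknown. Of the 10 pluripotency markers checked, POU5F1 had 1165 and 1152 TPM and LIN28A 908 and 897 TPM at 34 h, while NANOG had 2.46 and 1.59 TPM. The WNT feedback genes AXIN2 and SP5 rose after 34 h, and 8 of the 11 tested genes of that list were higher at 42 h than at 34 h by limma (background 1.78% of all tested genes). In these bulk samples fewer cells of a type and less RNA per cell cannot be told apart.

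NPTX1 was the dominant neuronal pentraxin transcript at 34 h and a moderate one afterwards. It lies on chromosome 17, from 80467148 to 80477843 on the minus strand (GENCODE release 29, GRCh38, ENSG00000171246). The 34 h libraries had 215 and 170 TPM, followed by 40.0 and 33.4 at 42 h, 31.65 and 28.99 at 50 h, then 58.1 and 37.7 at 72 h (replicate 1 first, here and below). Both 34 h libraries were far above all 6 later ones, and the 50 h libraries were the lowest. For 34, 42, 50 and 72 h in turn the means were 193 ± 31.7, 36.7 ± 4.65, 30.3 ± 1.88 and 47.9 ± 14.5 TPM (SD, n = 2). The mean at 34 h was thus 5.25-fold that at 42 h and 4.03-fold that at 72 h. On the log2(TPM + 1) scale, which was used for all differences, 42 h lay at -2.36 from 34 h. This difference was -2.399 within replicate 1 and -2.32 within replicate 2. Only 7 of the 14908 tested genes had a lower difference, a place that describes how NPTX1 was chosen and is not a test. In rank among all 35940 symbols, NPTX1 stood at places 635 and 796 in the 34 h libraries and between places 2646 and 4977 in the later ones.

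**Figure D1:**
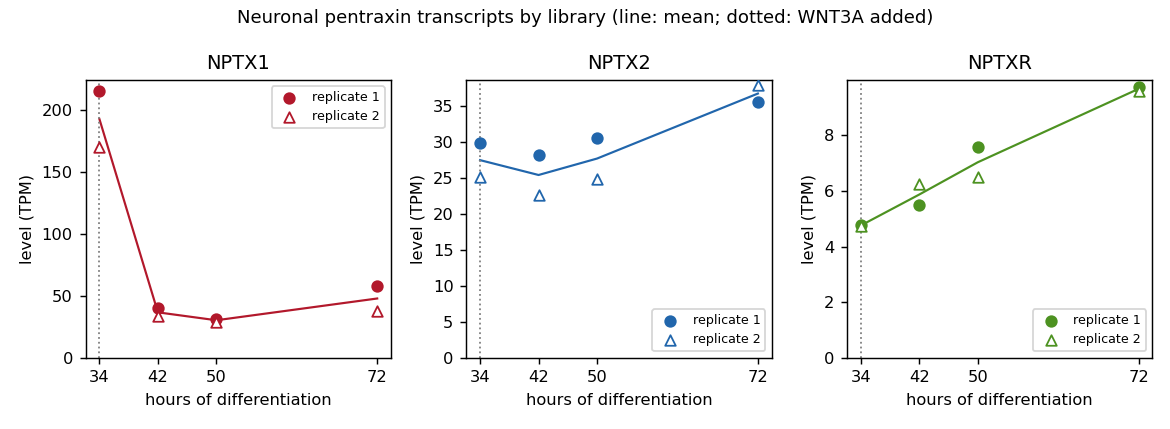
Level in TPM (y axis, linear from 0) of NPTX1, NPTX2 and NPTXR in each library against hours of differentiation (x axis); filled circles are replicate 1, open triangles replicate 2, and the line joins the means. NPTX1 has 215 and 170 TPM before WNT3A and 40.0 and 33.4 at 42 h, while NPTXR goes from 4.78 and 4.73 up to 9.74 and 9.59 by 72 h.

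After 42 h, NPTX1 moved little compared with that first difference. From 42 to 50 h its log2 difference was -0.26, with -0.33 and -0.20 within the replicates. The step from 50 to 72 h was not used in the choice of the gene and was tested. NPTX1 was higher at 72 h in both replicates, by 0.86 in replicate 1 and 0.37 in replicate 2 on the log2 scale, and the libraries of these time points did not overlap. The fitted difference was 0.61 ± 0.21 (SE; 95% interval 0.14 to 1.09), with a limma adjusted p of 0.126, which misses the threshold of 0.05. With the replicate number as a block the same difference passed (limma adjusted p 0.0335), and its p lay between 0.0335 and 0.483 across the 16 alternatives. The difference was 0.31 without replicate 1 at 72 h and 0.92 without replicate 2 at 72 h.

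NPTX2, first described in the rat as an immediate early gene of neurons under the name Narp, stayed between 22.7 and 38.0 TPM throughout. It lies on chromosome 7, from 98617297 to 98629868 on the plus strand (ENSG00000106236). Its libraries had 29.9 and 25.1 TPM at 34 h, 28.2 and 22.7 at 42 h, 30.6 and 24.8 at 50 h, then 35.6 and 38.0 at 72 h. The first 3 time points overlapped, with replicate 1 above replicate 2 at each, and both 72 h libraries were above all earlier ones. The means were 27.5 ± 3.36, 25.4 ± 3.91, 27.7 ± 4.11 and 36.8 ± 1.65 TPM (SD, n = 2). None of its 4 differences passed the threshold by limma. From 34 to 42 h the log2 difference was -0.11 ± 0.16 (95% interval -0.48 to 0.25; adjusted p 0.858 by limma). From 42 to 50 h it was 0.12 ± 0.16 (limma adjusted p 0.873). From 50 to 72 h it was 0.40 ± 0.16 (95% interval 0.04 to 0.77; limma adjusted p 0.182), and from 34 to 72 h 0.41 ± 0.16 (95% interval 0.05 to 0.77; limma adjusted p 0.0986). The signs of the first 2 differences depended on single libraries. The value from 34 to 42 h was 0.0086 without replicate 1 at 34 h and 0.04 without replicate 2 at 42 h. The value from 42 to 50 h was -0.03 without replicate 2 at 42 h and -0.03 without replicate 1 at 50 h.

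Of the 3 members, 1 matched the table of RefSeq promoters, NPTX2. Its promoter is shown so that its letters can be searched for the motif of the WNT effectors. The sequence is from RefSeq (GRCh38.p14), chr7:98617035-98617284 on the plus strand, the 250 bases before RefSeq's start, with every GC box (GGGCGG or its reverse complement CCGCCC) in capitals.
NPTX2: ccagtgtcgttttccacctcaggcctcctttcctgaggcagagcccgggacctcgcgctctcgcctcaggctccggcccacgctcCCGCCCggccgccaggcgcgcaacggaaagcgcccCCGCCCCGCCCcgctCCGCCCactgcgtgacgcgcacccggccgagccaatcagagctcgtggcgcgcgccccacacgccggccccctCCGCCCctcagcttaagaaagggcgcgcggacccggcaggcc
The window held 5 GC box matches, a pair of which share a base, and 42.6% of the 35116 promoters in the table held at least 1 in the same length. G and C made up 75.6% of its bases, against a median of 58.0% over all promoters. On either strand it held no match to TCAAAG, the core letters bound by TCF and LEF factors (11.2% of promoters held one). It also held no match to the octamer ATGCAAAT (1.63%) or to the cyclic AMP response element TGACGTCA (1.65%). These are matches of letters and not binding sites.

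NPTXR, the membrane-anchored member, had the lowest level and rose over the whole course. It lies on chromosome 22, from 38818452 to 38843982 on the minus strand (ENSG00000221890). It had 4.78 and 4.73 TPM at 34 h, 5.50 and 6.24 at 42 h, 7.57 and 6.49 at 50 h, then 9.74 and 9.59 at 72 h. The libraries of successive time points never overlapped, so the means climbed in order from 4.75 ± 0.041 through 5.87 ± 0.529 and 7.03 ± 0.765 to 9.67 ± 0.108 TPM (SD, n = 2). Between 34 and 72 h NPTXR rose 2.03-fold in mean TPM. The log2 difference was 0.89 ± 0.16 (95% interval 0.53 to 1.25; limma adjusted p 0.00498), with 0.89 in replicate 1 and 0.89 in replicate 2. The single steps were smaller and did not pass by limma. They were 0.25 ± 0.16 from 34 to 42 h (limma adjusted p 0.576), 0.22 ± 0.16 from 42 to 50 h (0.706), and 0.41 ± 0.16 from 50 to 72 h (0.167).

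The calls on the family are given beside those over all 14908 tested genes. From 34 to 42 h limma called 2.58% of genes, and 0 of the 2 members tested there (0 at an unadjusted p under 0.05). From 42 to 50 h it called 0.0939% of genes, 9 higher (0.0604%) and 5 lower (0.0335%; 9 and 10 after TMM rescaling), and 0 of 2 members (0 at an unadjusted p under 0.05). From 50 to 72 h it called 7.33% of genes, 2.92% higher and 4.41% lower, and 0 of 3 members, although all 3 were higher and all 3 had an unadjusted p under 0.05, as did 3336 of the 14908 genes. Between 34 and 72 h it called 24.0% of genes, 12.7% higher and 11.3% lower, and 1 of the 2 members tested, NPTXR. In that comparison the balance of calls turned with the scaling, from 1900 higher and 1678 lower as deposited to 1552 and 2003 after TMM rescaling and 1638 and 1796 after quantile normalization.

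**Figure D2:**
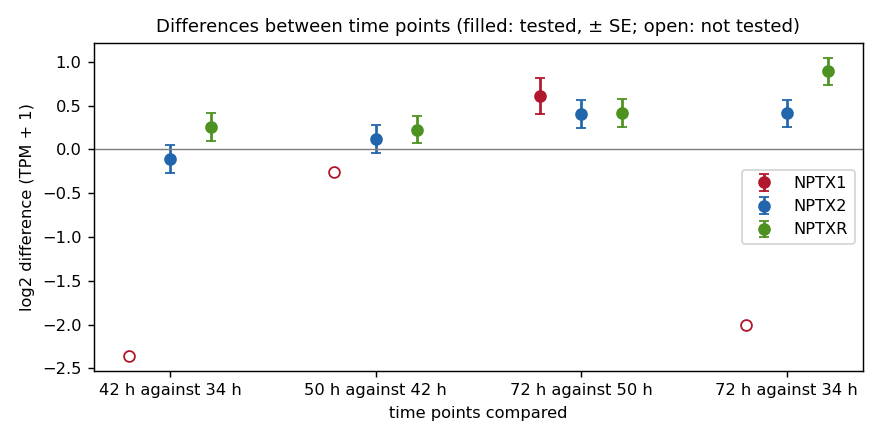
Difference in mean log2(TPM + 1) (y axis) for the 4 pairs of time points compared (x axis); filled points carry the SE of the limma fit, and open points are the NPTX1 differences that its choice used, drawn without error or test. From 50 to 72 h all 3 genes lie above 0, at 0.61, 0.40 and 0.41, and from 34 to 72 h NPTXR lies at 0.89 while NPTX1 lies at -2.01.

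The members' shares of the family's transcripts changed with time, while their means kept the order NPTX1, NPTX2, NPTXR at all 4 time points. At 34 h NPTX1 made up 86.1% and 85.1% of the summed neuronal pentraxin TPM, which averaged 225 ± 35.1 TPM (SD, n = 2). At 42 h its share was 54.3% and 53.6% of a mean sum of 68.0 ± 8.04 TPM, and at 50 h 45.3% and 48.1% of 65.1 ± 6.76 TPM. At 72 h the replicates parted, with 56.2% in replicate 1 and 44.2% in replicate 2, of 94.4 ± 12.9 TPM. NPTX1 thus had 7.20 and 6.78 times the TPM of NPTX2 at 34 h and 1.03 and 1.17 times at 50 h. In replicate 2 at 72 h the ratio was 0.993, the single library where NPTX2 was the higher of the pair. NPTXR was the lowest member in every library. Its share went from 1.91% and 2.36% at 34 h to 9.42% and 11.3% at 72 h.

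**Figure D3:**
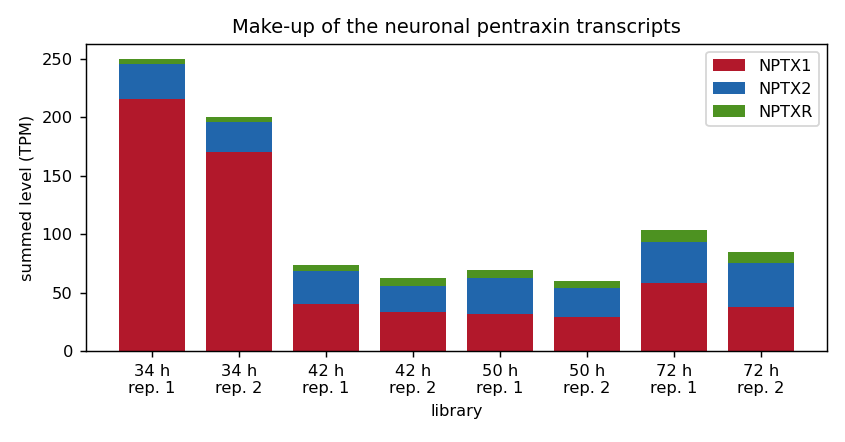
Summed level of the 3 genes in TPM (y axis, from 0) in each of the 8 libraries (x axis), with the part of each gene in colour. Both sums at 34 h are 200.3 TPM or more and the later ones lie between 60.3 and 103.5 TPM; NPTX1 makes up 86.1% and 85.1% of the 34 h sums.

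Ranked by mean over the 12 combinations of gene and time point, NPTX1 at 34 h came first and did not overlap the next. NPTX1 at 72 h, NPTX2 at 72 h and NPTX1 at 42 h followed, each overlapping its neighbour in this order. NPTX1 at 50 h, then NPTX2 at 50, 34 and 42 h formed a lower group whose neighbours also overlapped. The 4 NPTXR levels came last, in the order 72, 50, 42 and 34 h, with no overlap between neighbours.

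Of the other pentraxins, only PTX3 passed the filter. CRP and APCS, the short pentraxins of blood plasma, were listed at 0 in all 8 libraries, and PTX4 did not exceed 0.270 TPM. PTX3, a long pentraxin of innate immunity, went from 1.21 and 1.75 TPM at 34 h to 4.16 and 3.02 at 72 h. Its difference of 0.89 ± 0.26 passed by limma (adjusted p 0.0394). The call was lost in 10 of 15 alternatives, among them the replicate block (limma adjusted p 0.0504) and leaving out any library of 34, 42 or 72 h (up to 0.195).

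The AMPA receptors that neuronal pentraxins gather were scarce as pore subunits. GRIA2 was listed at 0 in every library. GRIA1 was between 0.317 and 0.979 TPM in 7 libraries and 3.04 TPM in replicate 2 at 72 h, GRIA3 was between 0.356 and 2.03 TPM, and GRIA4 was between 0.232 and 2.02 TPM. Several auxiliary subunits were present at higher levels. At 34 and 72 h in turn, CACNG7 had 30.3 and 31.9 TPM, then 35.0 and 34.2. CNIH2 had 25.3 and 21.9 TPM, then 37.4 and 32.4. SHISA9 had 18.4 and 18.8 TPM, then 9.16 and 11.7. Of the 15 genes listed, 11 passed the filter.

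At 42 h, where NPTX1 was much lower than at 34 h, 1 of these 11 was called higher (background 1.78%) and 0 lower (0.792%). It was CNIH3, a cornichon protein that escorts AMPA receptors, with 5.15 and 3.50 TPM at 34 h, 17.1 and 16.0 at 42 h, 14.5 and 12.8 at 50 h, then 7.82 and 7.68 at 72 h. CNIH3 rose by 1.74 ± 0.18 from 34 to 42 h (limma adjusted p 0.00168), and the groups did not overlap. The call held under all 15 alternatives run on the list genes. At 72 h against 34 h 3 genes were called higher (background 12.7%) and 2 lower (11.3%), with a list median of -0.55 against 0.06 over all tested genes. The lower calls were SHISA9, by -0.79 ± 0.15 (limma adjusted p 0.00669; 0.0501 without replicate 1 at 72 h), and CACNG8, by -0.63 ± 0.19 (0.0418; lost in 11 of 15 alternatives, among them the replicate block at 0.0577 and leaving out any 1 of the 8 libraries, up to 0.176). The higher calls were CNIH2 (0.54 ± 0.16), CNIH3 (0.73 ± 0.18) and SHISA6 (0.85 ± 0.20). The call of CNIH2 (limma adjusted p 0.0436) was lost in 10 of 15 alternatives, among them TMM rescaling (0.0608) and leaving out any library of 34, 42 or 72 h (up to 0.210). The calls of CNIH3 and SHISA6 (limma adjusted p 0.0208 and 0.0176) were lost without replicate 2 at 34 h or without either 72 h library (up to 0.111 and 0.102), that of CNIH3 also with the compared time points alone (0.0633).

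Among genes whose products handle or bind neuronal pentraxins, ADAM17, a membrane protease that can release NPTXR from the cell surface, had between 15.6 and 21.8 TPM. RCN2, a calcium-binding protein of the endoplasmic reticulum, had between 121 and 153 TPM. For neither did any of the 4 differences pass by limma. From 34 to 72 h 1 of the 2 genes had an unadjusted p under 0.05 by limma, as did 5506 of all 14908 tested genes. The log2 differences from 34 to 72 h were 0.34 ± 0.13 for ADAM17 and 0.15 ± 0.12 for RCN2.

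Of 20 other synapse organizers, which bridge the pre- and postsynaptic membranes as neuronal pentraxins do, 15 passed the filter. At 72 h 3 were called higher than at 34 h and 3 lower by limma, against 12.7% and 11.3% of all tested genes. The presynaptic receptor NRXN3 rose from 3.01 and 3.56 TPM to 17.0 and 19.8 TPM, by 2.18 ± 0.16 (limma adjusted p 4.853e-05). The neuroligins NLGN2, a postsynaptic partner at inhibitory synapses, and NLGN3 rose by 0.64 ± 0.11 and 0.90 ± 0.14 (limma adjusted p 0.00500 and 0.00309), while NLGN4X fell from 38.1 and 30.8 TPM to 18.9 and 16.4 TPM. The calls of these 4 held under all 15 alternatives. C1QL3, a secreted protein of the C1q family, was also called lower (limma adjusted p 0.00845), and its call was lost without replicate 2 at 34 h (0.0519). The list median was 0.01 as deposited and -0.06 after TMM rescaling. Between 34 and 42 h 2 of the 15 were called higher (background 1.78%), NRXN3 and CBLN1, and 1 lower (0.792%), NLGN4X. The call of NRXN3 (limma adjusted p 0.00878) was lost in 3 of 15 alternatives, among them leaving out replicate 1 at 34 h (0.0710) or replicate 2 at 42 h (0.0803). That of NLGN4X (0.0407) was lost in 11, among them leaving out any 1 library (up to 0.222). CBLN1, a secreted organizer like NPTX1, rose over that step from 7.02 and 3.21 TPM to 34.8 and 25.2 TPM, by 2.398 ± 0.33 (limma adjusted p 0.00807; 0.0731 without replicate 1 at 42 h, and 0.0625 when 34 and 42 h alone were fitted). Its 72 h libraries had 4.59 and 4.32 TPM.

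**Figure D4:**
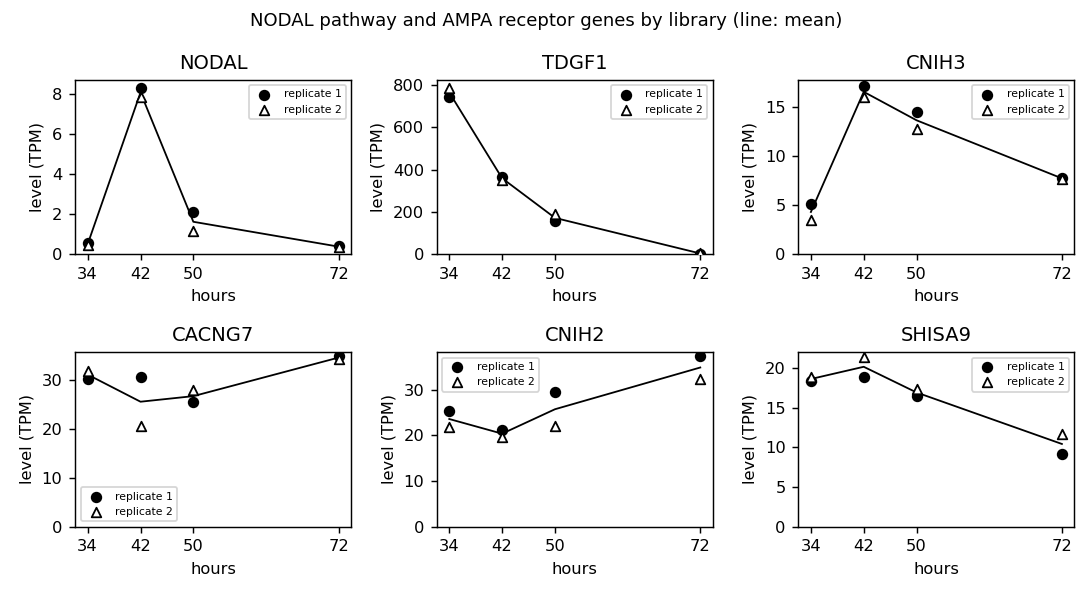
Level in TPM (y axes, linear from 0) of 2 NODAL pathway genes and 4 AMPA receptor auxiliary genes in each library against hours of differentiation (x axes); circles are replicate 1, triangles replicate 2, lines the means. NODAL peaks at 42 h with 8.32 and 7.84 TPM, TDGF1 is lower at each later time point, and CNIH3 is highest at 42 h with 17.1 and 16.0 TPM.

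TDGF1, the NODAL co-receptor that NPTX1 has been described to bind, was abundant at 34 h and nearly gone at 72 h. Its libraries had 743 and 785 TPM at 34 h, 366 and 352 at 42 h, 156 and 188 at 50 h, then 2.94 and 6.13 at 72 h. No libraries of successive time points overlapped. NPTX1 and TDGF1 both had lower means at 42 h than at 34 h and lower again at 50 h. From 50 to 72 h the NPTX1 difference of 0.61 did not pass (limma adjusted p 0.126). TDGF1 fell over that step, with a log2 difference of -5.03 ± 0.24 (limma adjusted p 6.01e-05). Its 42 h difference of -1.09 ± 0.24 did not pass (limma adjusted p 0.0595), except with the replicate block (0.0349), with the compared time points alone (0.0130) and without either 72 h library (0.00518 and 0.00529). The ligand NODAL went from 0.572 and 0.449 TPM at 34 h to 8.32 and 7.84 at 42 h. That rise was 2.59 ± 0.25 (limma adjusted p 0.00124), and the 72 h libraries had 0.417 and 0.361 TPM of NODAL.

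Of the 15 NODAL pathway genes 11 passed the filter. From 34 to 42 h 3 were called higher (background 1.78%) and 0 lower (0.792%), with a list median of 0.04 against 0.01 over all tested genes. Besides NODAL these were the signal transducers SMAD2 (0.64 ± 0.11) and SMAD3 (1.18 ± 0.24). Their calls (limma adjusted p 0.0187 and 0.0450) were lost in 6 and 8 of 15 alternatives. Both were lost without replicate 2 at 34 h or either library of 42 h, that of SMAD2 also without replicate 1 at 34 h, and that of SMAD3 also without either library of 72 h (up to 0.131 and 0.220). At 72 h SMAD3 was higher than at 34 h by 1.46 ± 0.24 (limma adjusted p 0.00374). TDGF1 and the cofactor FOXH1 were lower at 72 h, with log2 differences of -7.17 ± 0.24 and -0.70 ± 0.17. The ligand gene GDF3 was also called lower (limma adjusted p 0.00906), from 1.5 and 1.82 TPM to being listed at 0 in both 72 h libraries. The call of GDF3 was lost without replicate 2 at 34 h (limma adjusted p 0.0631). That of FOXH1 (limma adjusted p 0.0221) was lost without either 34 h library or replicate 1 at 72 h (up to 0.136), and with no filter on low values (0.0535). The NODAL antagonists LEFTY1 and LEFTY2, which are targets of the pathway, did not exceed 0.231 TPM. SB at 10 µM was present in every library, so all of these are levels under SB. The activity of the pathway and any link to NPTX1 were not tested.

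In the BMP pathway, whose signal NPTX1 has also been described to lower, 14 of 15 genes passed the filter. LDN at 100 nM was present in every library, so these are levels under LDN. The activity of this pathway and any link to NPTX1 were not tested. From 34 to 42 h 1 was called higher and 0 lower. The background was 1.78% and 0.792%. That gene was ID2, a BMP target, which rose from 24.3 and 29.4 TPM to 59.3 and 62.3 TPM, by 1.16 ± 0.11 (limma adjusted p 0.00143), and reached 129.9 and 119.9 TPM at 72 h. Between 34 and 72 h 5 were higher (background 12.7%) and 4 lower (11.3%), with a list median of 0.08 against 0.06 over all tested genes. The ligands BMP4 and BMP7 fell by -1.17 ± 0.20 and -1.36 ± 0.23 (limma adjusted p 0.00393 and 0.00401). The antagonists CHRD and NOG rose by 2.52 ± 0.24 and 1.63 ± 0.27 (limma adjusted p 0.000221 and 0.00362), CHRD from 1.15 and 1.30 TPM to 13.4 and 10.2 TPM. The inhibitor SMAD6 rose as well, by 1.34 ± 0.24. The calls of ID2, BMP4, BMP7, CHRD, NOG and SMAD6 held under all 15 alternatives. The remaining calls, SMAD5 higher and ID1 and ID4 lower, had limma adjusted p-values of 0.0492, 0.0396 and 0.0240. They were lost in 13, 8 and 4 of the 15 alternatives, among them leaving out either library of 34 h or 72 h for ID1 and ID4. For SMAD5 they included leaving out any library but replicate 1 at 34 h (up to 0.254), TMM rescaling (0.0664) and quantile normalization (0.0671).

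NPTX2 is known as an activity-regulated gene in neurons, and other genes of that kind had a range of levels here. Of 10 such genes 7 passed the filter, and limma called 0 of them from 34 to 42 h (background 2.58%). At an unadjusted p under 0.05 by limma there was 1, against 2069 of all 14908 tested genes. Between 34 and 72 h ARC, which tunes AMPA receptor uptake, was the single call (background 24.0%), falling from 5.67 and 4.06 TPM to 1.78 and 1.47 TPM (-1.15 ± 0.24, limma adjusted p 0.0102). It was lost without replicate 1 at 34 h or replicate 2 at 72 h (0.0711 and 0.0634). HOMER1, a postsynaptic scaffold protein, had between 14.8 and 28.8 TPM, near the level of NPTX2. NR4A1 had between 6.18 and 12.3 TPM, EGR1 between 6.30 and 13.0 TPM, FOS between 0.595 and 4.33 TPM, and BDNF did not exceed 0.905 TPM.

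Markers of neurons had unequal levels. TUBB3, a tubulin of young neurons, ranged from 168 to 311 TPM, and INA, a neurofilament protein, from 13.2 to 18.9 TPM. The splicing factor RBFOX3 had between 7.44 and 22.9 TPM and the vesicle protein SYT1 between 7.17 and 12.7 TPM. SNAP25, which acts in vesicle fusion, did not exceed 1.01 TPM, and the RNA-binding protein gene ELAVL4 did not exceed 0.988 TPM. The 12 neuron markers, of which 11 reached 1 TPM in some library, summed to between 286 and 338 TPM at 34 h and between 246 and 265 TPM at 72 h. Of the 10 tested, 2 were called higher at 72 h than at 34 h (background 12.7%) and 0 lower (11.3%), with a list median of -0.28 against 0.06 over all tested genes. RBFOX3 had a difference of -1.12 ± 0.37 (limma adjusted p 0.0640), which passed in 4 of 15 alternatives, among them the replicate block (0.0421) and leaving out either 50 h library (0.0180 and 0.0186). NEFL had -0.64 ± 0.22 (limma adjusted p 0.0659; 0.0381 without replicate 1 at 34 h). STMN2 rose from 0.320 and 0.256 TPM to 8.01 and 7.10 TPM (2.73, limma adjusted p 4.937e-05), and DCX had a difference of 0.80 (0.0273; lost without replicate 2 at 34 h or either library of 72 h, up to 0.145, and with no filter on low values, 0.0642). The 10 neural progenitor markers summed to 572 to 583 TPM at 34 h, 552 to 569 at 42 h and 1005 to 1074 at 72 h, and 7 of the 9 tested were higher at 72 h than at 34 h (background 12.7%). The 10 pluripotency markers summed to 4022 to 4116 TPM at 34 h, 3300 to 3461 at 42 h, 2994 to 3148 at 50 h and 2156 to 2252 at 72 h. From 34 to 42 h 2 of these 10 were called lower (background 0.792%) and 0 higher. PRDM14 kept its call under all 15 alternatives, and DNMT3B (limma adjusted p 0.0430) lost it in 10 of them, among them leaving out any library but replicate 2 at 34 h (up to 0.253). From 50 to 72 h 2 of the 10 were called higher (background 2.92%), SOX2 and PRDM14, and 4 lower (4.41%). PRDM14 rose over that step by 1.24 (limma adjusted p 0.0038). From 34 to 72 h 1 was called higher (background 12.7%), SOX2, and 5 lower (11.3%), and PRDM14 was not called. Among the other types, the sums at 34 and 72 h were 13.1 to 14.2 and 2.05 to 2.39 TPM for mesoderm and endoderm (MSGN1 and SOX17 at 0 in all libraries). They were 26.2 to 31.2 and 38.1 to 38.4 TPM for neural crest, and 38.4 to 43.1 and 52.1 to 54.3 TPM for glia. The part of these cell types in the pentraxin levels was not tested.

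Genes with a course like that of NPTX1 were sought over the 8 libraries by Pearson's r on the log2 scale, among 1494 genes with a mean of 5 TPM or more at some time point and a range of at least 1 between time points. The 10 most alike had r between 0.904 and 0.978. In order they were LFNG, a sugar transferase acting on Notch, HMOX1, a heme-degrading enzyme, ANOS1, a secreted matrix protein, FZD5, a WNT receptor, ERVMER34-1, GADD45G, TAP2, RGS2, TMEM151B and MYLIP. LFNG had 44.9 and 41.3 TPM at 34 h, 20.0 and 17.5 at 42 h, 15.8 and 13.3 at 50 h, then 18.6 and 17.9 at 72 h. HMOX1 had 56.5 and 53.3 TPM, then 16.6 and 15.4, 13.1 and 10.8, and 15.4 and 12.5 TPM. The likeness rests mostly on the 34 h libraries, which stand apart in all of these genes. Over the 6 later libraries r was 0.692 for LFNG, 0.592 for HMOX1 and 0.507 for ANOS1, and between -0.518 and 0.323 for the other 7. From 50 to 72 h these 10 genes had log2 differences between -0.46 and 0.32, given with no test because all 8 libraries were used to pick them.

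**Figure D5:**
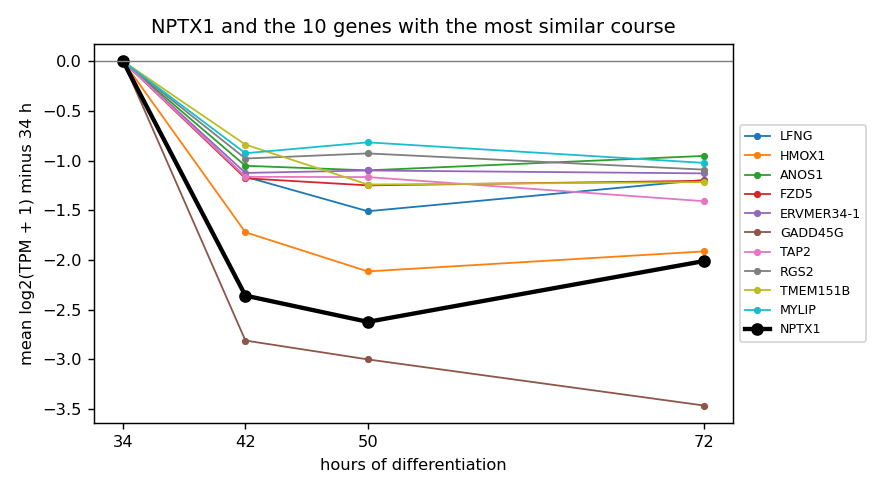
Mean log2(TPM + 1) at each time point minus its value at 34 h (y axis) against hours of differentiation (x axis) for NPTX1 (thick black) and the 10 genes with the highest Pearson r to it. All lie below 0 from 42 h on; GADD45G, at -2.81 at 42 h, is the one below NPTX1 there, and from 50 to 72 h NPTX1 differs by 0.61 and the others by -0.46 to 0.32.

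NPTX2 and NPTXR did not themselves span the range of at least 1 between time points that was asked of the candidates. By the same rule, the 5 genes most like NPTX2 were EHD2, IFI27L2, FBLN2, CEND1 and POU3F1, with r between 0.943 and 0.967. POU3F1, a POU-domain transcription factor of neural cells, had 25.9 and 20.7 TPM at 34 h against 37.7 and 36.9 at 72 h. These genes, like NPTX2, had replicate 1 above replicate 2 at 34, 42 and 50 h. The likeness thus holds the difference between replicates at those time points as well as time. The part of the batch in it was not tested. The 5 most like NPTXR were GALNT17, OLFM3, RALGDS, SLC5A3 and GREB1L, with r between 0.987 and 0.991. Such a steady climb was common, since 105 of 1495 genes had r above 0.95 with NPTXR, against 4 with NPTX2 and 5 of 1494 with NPTX1. GALNT17 had 15.4 and 12.9 TPM at 34 h, 17.2 and 19.2 at 42 h, 29.03 and 23.4 at 50 h, then 49.1 and 45.7 at 72 h.

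The genes beside the pentraxins on their chromosomes were examined in the same way. The 2 nearest protein coding genes on each side were taken from GENCODE release 29, 12 in all, of which 11 passed the filter. From 34 to 42 h limma called 0 of the 11 (background 2.58%). At an unadjusted p under 0.05 by limma there were 0, against 2069 of all 14908 tested genes. NPTX1 lies between ENDOV, 29.1 kb below, and RPTOR, a subunit of the mTORC1 kinase complex, 67.0 kb above. ENDOV had 9.004 and 11.4 TPM at 34 h against 16.9 and 10.3 at 42 h. RPTOR had 14.1 and 11.04 TPM, then 12.2 and 11.3. At 72 h 1 of the 11 was called (background 24.0%), CHMP6, which lies 513.8 kb above NPTX1 and was 0.60 higher (limma adjusted p 0.0220). The neighbours of NPTXR on either side, SUN2, DNAL4 and CBX6, had differences from 34 to 72 h of 0.51, 0.65 and 0.36 that did not pass (limma adjusted p 0.0586, 0.0866 and 0.116).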

How the data were processed

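The deposited values are TPM per Ensembl gene in 1 table with a column for each of 8 libraries, and the columns were matched to samples by the names in the labels. Per the submitters' processing notes, Salmon 1.9.0 and GRCh38 were used; the annotation, filters and the step from transcripts to genes are not given in the sources used here. Every column sums to 1000000, so depth is not recoverable and no counting interval was computed. The 37951 rows were summed to 35940 symbols. Genes with 1 TPM or more in 2 or more libraries (14908) were fitted as log2(TPM + 1), which understates changes of low genes, with limma 3.58.1 in R 4.3.3. The fit had 1 mean per time point over all 8 libraries, a variance trend, and two-sided Benjamini-Hochberg adjusted p-values over all tested genes, called under 0.05. It was tested on simulated data. TMM rescaling here is an unweighted trimmed mean of log ratios. Each comparison sets 2 libraries against 2. Its p-values use a spread between replicates estimated over all 8 libraries (4 residual degrees of freedom) and adjusted by the trend across genes.

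The labels number replicates as batches, so the replicate number pairs libraries. Differences between replicates correlated across genes with r of 0.0949 (34 with 42 h), 0.195 (34 with 50 h) and 0.142 (42 with 50 h). For 72 h, r was -0.0445 with 34 h, -0.0779 with 42 h and -0.104 with 50 h. The members, 14 gene lists (pentraxins, AMPA receptors, pentraxin partners, synapse organizers, NODAL, BMP, activity genes, WNT feedback and 6 cell types) and tests were chosen with earlier results of these data known. Named genes are the members, list genes, the 10 genes most like NPTX1, the 5 most like NPTX2 and NPTXR, and the 2 nearest coding genes on each side. Some genes of the lists are counted in them but not reported here by name.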

Additional observations from a re-analysis of the deposited data

How the results depend on the processing

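Each member's value was recomputed under 16 alternatives: 0.1 as pseudocount, all genes kept, TMM rescaling, quantile normalization, no variance trend, a fit of the compared time points alone, a replicate block, Ensembl rows apart, and leaving out each of the 8 libraries. The rise of NPTXR from 34 to 72 h kept its call in all 16, with log2 differences of 0.83 to 1.01 and limma adjusted p-values of 0.0037 to 0.0381. The untested NPTX1 differences had values of -2.53 to -2.19 from 34 to 42 h, -0.39 to -0.14 from 42 to 50 h and -2.31 to -1.70 from 34 to 72 h. The sign from 34 to 42 h was set by the choice of NPTX1. The difference from 34 to 72 h uses the same 34 h level, so neither sign is a test. The step of NPTX1 from 50 to 72 h (0.61) passed once the replicate block was added (limma adjusted p 0.0335), which changed no other call of a member. NPTX2 changed sign in 4 cases, all on leaving out 1 library: its difference from 34 to 42 h ranged from -0.26 to 0.0397, with 0.0086 without replicate 1 at 34 h, and that from 42 to 50 h ranged from -0.0313 to 0.27, with -0.0264 without replicate 1 at 50 h.

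The counts of changed genes moved more. With the compared time points alone limma called 171 genes in place of 384 from 34 to 42 h, 0 in place of 14 from 42 to 50 h (1089 at an unadjusted p under 0.05) and 367 in place of 1093 from 50 to 72 h, but 3252 in place of 3578 from 34 to 72 h. From 42 to 50 h there were also 8 calls without the filter, 27 without the variance trend, 7 with the replicate block and 4 with Ensembl rows apart; the cause was not tested. Leaving out 1 library gave 161 to 372 calls from 34 to 42 h, 1 to 8 from 42 to 50 h, 316 to 911 from 50 to 72 h and 1867 to 3629 from 34 to 72 h (3578 with all libraries). TMM rescaling and quantile normalization moved the median of all genes by no more in size than -0.0658 (TMM, 34 to 72 h). Depth is unknown, so what it limits cannot be given.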
